A study of Mus musculus with 6 samples.

Results

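The 44 genes described here run the cell division cycle, and their transcripts were read by RNA sequencing of mouse liver iNKT1 cells, a T-bet-expressing class of CD1d-restricted T cells. They were picked by name: 17 act before and during DNA replication, 22 act in mitosis, Ccna2 and Stmn1 belong to neither class alone, and Cdkn1a, Cdkn1b and Cdkn2c encode inhibitors of cyclin-dependent kinases. All 44 had a row among the 12942 Ensembl genes of the deposited table, and all 44 passed the filter on low values (a normalised count of 10 or more in 3 or more libraries), as did 11226 genes in all. The cKOHet group (Tbx21Cre Ets1F/F Tbx21F/+ Rosa26-YFP+) had 3 libraries and the control group (Tbx21Cre Rosa26-YFP+) had 3, with the replicate numbers 1, 2 and 4 in each. The library code of replicate 1 joins 2 names in each group, and the labels do not say whether it holds 2 samples pooled. Both groups carry Cre driven by Tbx21, the gene of the T-box factor T-bet, and the YFP reporter, and sorting took YFP+ cells that bound CD1d tetramer. A cell therefore had to have switched on Cre to be sampled. In cKOHet mice both Ets1 alleles and 1 Tbx21 allele are floxed, so the loss of Ets1 and of a Tbx21 allele cannot be told apart here. The labels give neither the age nor the sex of the mice, and they do not tie libraries to single animals, so the p-values cover only the spread among these libraries.

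Replication genes are switched on by E2F factors as a cell leaves G1. They encode the MCM helicase and its loading factors, the sliding clamp, and the enzymes that supply deoxynucleotides. Mitosis genes follow later, in G2, through the MuvB, B-Myb and FoxM1 factors, and encode the kinases, spindle motors and checkpoint proteins that separate the chromosomes. Retinoblastoma family proteins and kinase inhibitors hold both programmes down in resting cells. Mature iNKT1 cells are largely resting effector cells, so a population holds few cycling cells, and in a bulk library fewer cycling cells and less RNA per cell cannot be told apart.

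Of the targeted genes, Ets1 was low in every cKOHet library. Ets1 was at 462, 596 and 441 normalised counts in cKOHet libraries and 7391, 6255 and 7787 in control libraries. Tbx21, of which 1 allele is floxed, was at 2174, 2316 and 2127 in cKOHet libraries and 2434, 2504 and 2765 in control libraries, a log2 fold change of -0.22 that was not called (limma adjusted p = 0.196). The values are sums over each gene, so they do not show whether the floxed Tbx21 allele was recombined. Column totals of the normalised counts lay between 4996523 and 5219483, and the reads behind them are unknown. Xist, transcribed in female cells, was at 4337 to 5657 in replicates 1 and 2 of both groups and at 0.0816 (cKOHet) and 1.17 (control) in replicate 4, so each group held libraries of both kinds. The T and iNKT markers were abundant, with summed levels of 40400 to 45510 in cKOHet and 47380 to 50330 in control libraries for 8 of 8 genes. No B cell marker of 6 had a row among the genes analysed. Of 10 myeloid markers 6 had a row, and their sum was higher with the genotype, at 113 to 138 in cKOHet and 25.8 to 77.4 in control libraries. Of 7 hepatocyte markers all had a row, at 255 to 624 in cKOHet and 214 to 406 in control libraries. Of 7 erythroid markers, Hba-a1 alone had a row, at 7.40 to 33.2 in cKOHet and 0.00 to 0.0566 in control libraries, and Stab2 was the single endothelial marker of 5, at 1.01 to 12.4 and 0.0380 to 3.68. The 4 NK markers summed to 74.4 to 109 in cKOHet and 24.6 to 35.0 in control libraries. The part of these cells in the results below was not tested.

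With all 6 libraries, neither programme moved as a block, and how far this rests on control replicate 2 is given below. Of the 44 genes, 3 were called at an adjusted p under 0.05 (limma, Benjamini-Hochberg over the 11226 genes), which is 6.82%, against 21.4% of the whole table (11.5% upward and 9.97% downward). The inhibitor gene Cdkn1a and the spindle gene Nusap1 rose in cKOHet libraries, and the helicase gene Mcm4 fell. In the 4 libraries with high Xist alone, a split chosen after seeing the data, the log2 fold changes of Cdkn1a, Nusap1 and Mcm4 were 2.23, 0.66 and -0.46 (limma adjusted p = 0.0321, 0.236 and 0.0667), and the libraries with low Xist, 1 a group, allow no test of their own. By class, 1 of 17 replication genes, 1 of 22 mitosis genes and 1 of 3 inhibitor genes were called. At 7 of the 44 the unadjusted p (limma) was under 0.05, against 3610 of the 11226 genes tested, which is a larger share. The 2 groups of libraries did not overlap at 5 of the 44 (11.4%), where 35.8% of all genes tested showed no overlap. The median log2 fold change, always cKOHet minus control on the log2(normalised count + 1) scale, was 0.07 over the replication genes and 0.05 over the mitosis genes, against 0.01 over all genes tested. The median width of the 95% interval was 0.97 log2 units for replication and 1.40 for mitosis genes, against 0.88 for all genes. These intervals follow the spread between libraries, given below, and a wider one makes a call less likely.

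**Figure D1:**
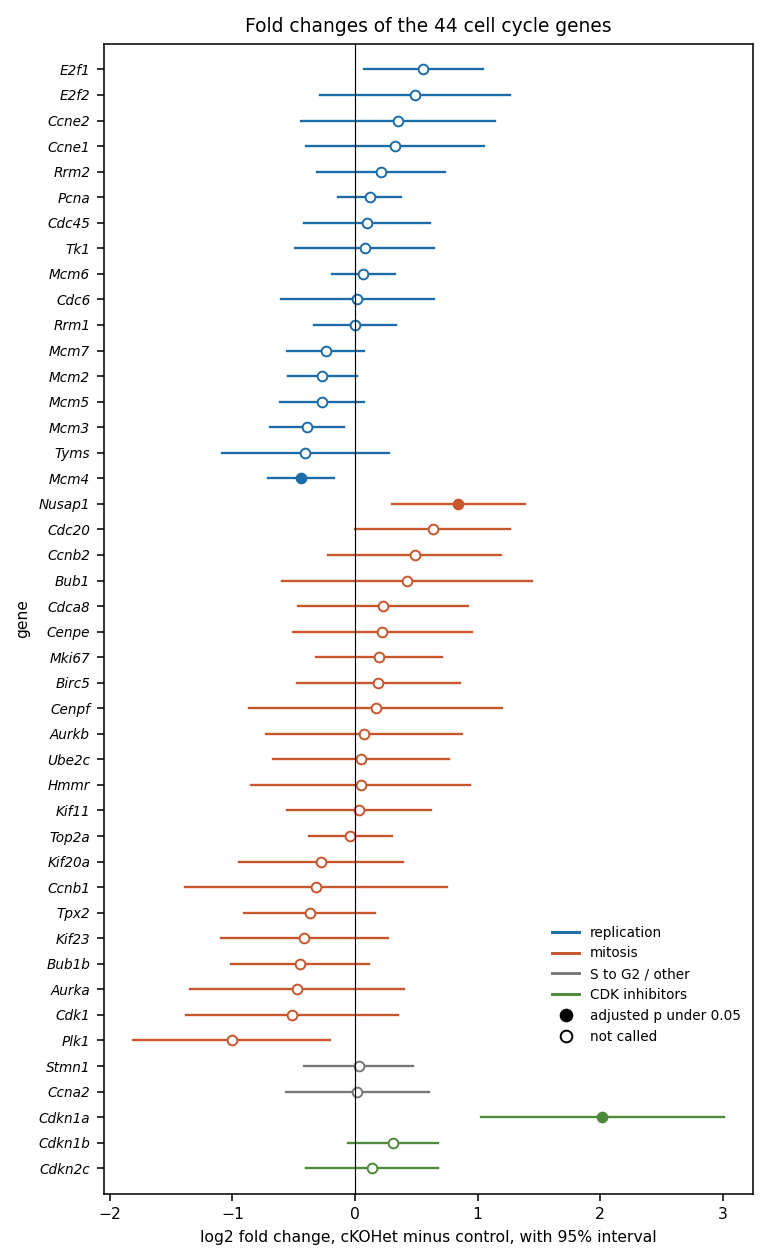
Log2 fold change (x axis, cKOHet minus control) of each of the 44 genes (y axis) with its 95% interval from limma, coloured by class, filled where the adjusted p is under 0.05. Filled points mark Cdkn1a at 2.02, Nusap1 at 0.84 and Mcm4 at -0.44. Among genes not called, the intervals of the replication genes E2f1 and Mcm3 and the mitosis genes Plk1 and Cdc20 leave out 0.

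The replicative helicase is a ring of the proteins encoded by Mcm2 to Mcm7, which is loaded at origins in G1 and unwinds DNA in S phase. Mcm4 (ENSMUSG00000022673, mm10 chromosome 16, 15623897 to 15637400, minus strand) was at 816, 983 and 853 in cKOHet libraries and 1112, 1359 and 1131 in control libraries. Every cKOHet library lay below every control, and the log2 fold change was -0.44 (SE 0.13, limma adjusted p = 0.0202). The call ended when cKOHet replicate 1 (-0.38, adjusted p = 0.0707), cKOHet replicate 4 (-0.42, adjusted p = 0.0521) or control replicate 2 (-0.35, adjusted p = 0.108) was left out.

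None of the other 5 MCM genes was called. Mcm3 was at 731, 797 and 656 in cKOHet libraries and 793, 1137 and 962 in control libraries. The groups overlapped by a narrow margin, since cKOHet replicate 2 sat just above control replicate 1, and the difference of -0.39 log2 units (SE 0.14) missed the threshold (adjusted p = 0.062). It was called without control replicate 1 (-0.53, adjusted p = 0.0243). Mcm2, Mcm5 and Mcm7 averaged 953 ± 80.9, 766 ± 83.7 and 622 ± 62.8 in cKOHet and 1153 ± 186, 939.6 ± 241 and 741 ± 149 in control libraries (SD, n = 3 each), with adjusted p of 0.187 to 0.298 (limma). Mcm6 was the exception, at 1473 ± 125 in cKOHet and 1407 ± 142 in control libraries. So 5 of the 6 subunit genes had a negative fold change and 1 of them was called. Without control replicate 2 the log2 fold changes of Mcm2, Mcm5 and Mcm7 were -0.14, -0.07 and -0.08, against -0.27, -0.27 and -0.24 with all libraries.

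Cdc6 and Cdc45, which act in origin loading and firing, were not called. Cdc6, which helps to load the helicase, was at 108, 95.5 and 65.6 in cKOHet libraries and 83.1, 125 and 62.4 in control libraries, and the groups overlapped. Cdc45, which joins the helicase when an origin fires, was at 91.0 ± 3.25 in cKOHet and 86.1 ± 17.3 in control libraries. Pcna, the sliding clamp of DNA polymerases, was the most abundant of the 44 per exon length in both groups, at 771 normalised counts per kb in cKOHet and 711.5 in control libraries, and its log2 fold change of 0.12 had a 95% interval of -0.14 to 0.37.

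Among the enzymes that make DNA precursors, none was called. Rrm1 and Rrm2, the subunits of ribonucleotide reductase, were at 631 ± 62.2 and 366 ± 37.6 in cKOHet and 639.9 ± 148 and 339 ± 170.3 in control libraries. Rrm2 was at 333, 407 and 357 in cKOHet libraries and 251, 536 and 232 in control libraries, so that the control libraries lay on either side of all cKOHet ones. Tk1 (thymidine kinase) was at 159 ± 38.0 and Tyms (thymidylate synthase) at 91.3 ± 21.1 in cKOHet libraries, with 155 ± 61.0 and 129 ± 61.8 in control libraries.

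None of the 4 regulators of S phase entry was called. E2f1, an activator of replication genes, was at 159, 218 and 181 in cKOHet libraries and 94.97, 169 and 122 in control libraries. Only control replicate 2 reached into the cKOHet range, and the difference of 0.56 log2 units (SE 0.23) missed the threshold (adjusted p = 0.0996). Without control replicate 2 it was called (0.77, adjusted p = 0.0316). E2f2, another activator, averaged 82.0 ± 12.6 in cKOHet and 65.2 ± 40.9 in control libraries, and the cyclin E genes Ccne1 and Ccne2, whose products drive Cdk2 at the start of S phase, averaged 60.2 ± 20.4 and 34.5 ± 5.44 in cKOHet and 47.7 ± 14.7 and 27.5 ± 9.13 in control libraries. Their adjusted p lay between 0.393 and 0.566 (limma), and their groups overlapped. Without control replicate 4 the log2 fold change was 0.14 for E2f2, against 0.49 with all libraries, and 0.09 for Ccne1, against 0.33.

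Mitosis genes scattered in both directions, with 13 of 22 fold changes positive. Nusap1 (ENSMUSG00000027306, chromosome 2, 119618298 to 119651244, plus strand), which binds and bundles spindle microtubules, was at 188, 167 and 218 in cKOHet libraries and 77.4, 162 and 93.1 in control libraries. All cKOHet libraries were above all controls, control replicate 2 only just, and the log2 fold change was 0.84 (SE 0.25, limma adjusted p = 0.0263). The call ended without cKOHet replicate 1 (0.85, adjusted p = 0.0635), cKOHet replicate 4 (0.74, adjusted p = 0.111) or either of control replicates 1 (0.62, adjusted p = 0.117) and 4 (0.76, adjusted p = 0.0907).

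Plk1, a kinase that drives mitotic entry and spindle assembly, leaned the other way. It was at 27.2, 40.7 and 36.5 in cKOHet libraries and 37.8, 85.3 and 106 in control libraries, so that control replicate 1 lay within the cKOHet range. Its log2 fold change was -1.01 (SE 0.38, limma adjusted p = 0.0727), and without control replicate 1 it was called (-1.44, adjusted p = 0.0085). Cdc20, the activator of the anaphase-promoting complex, was at 68.5, 78.9 and 51.0 in cKOHet libraries and 47.0, 40.1 and 38.1 in control libraries, with no overlap but an adjusted p = 0.155. Kif23, a motor of cytokinesis, also had groups without overlap (37.1 ± 7.80 in cKOHet and 49.3 ± 5.77 in control libraries, adjusted p = 0.413, limma).

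The kinase of mitotic entry and its cyclins differed among themselves. Cdk1 was at 53.4, 77.8 and 49.0 in cKOHet libraries and 77.5, 178 and 43.4 in control libraries. Ccnb1 (cyclin B1) averaged 32.5 ± 7.03 and Ccnb2 (cyclin B2) 91.8 ± 31.5 in cKOHet libraries, with 50.5 ± 38.4 and 66.7 ± 26.6 in control libraries. Control libraries spread widely at all 3 genes, and more than cKOHet libraries at Cdk1 and Ccnb1. None of the 3 genes was called (adjusted p 0.348 to 0.725, limma).

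The spindle checkpoint and Aurora kinase genes overlapped between the groups. Bub1 and Bub1b, kinases of the checkpoint, averaged 57.1 ± 8.60 and 101 ± 10.2 in cKOHet and 54.0 ± 45.03 and 144 ± 60.3 in control libraries. Aurka, the centrosomal Aurora kinase, was at 28.5 ± 11.7 in cKOHet and 39.5 ± 15.4 in control libraries. The chromosomal passenger genes Aurkb, Birc5 (survivin) and Cdca8 (borealin) averaged 52.3 ± 11.7, 62.5 ± 4.11 and 75.6 ± 5.52 in cKOHet and 53.8 ± 29.4, 57.0 ± 20.02 and 68.9 ± 28.9 in control libraries. Ube2c, the ubiquitin-conjugating enzyme of the anaphase-promoting complex, was at 51.9 ± 15.4 and 49.6 ± 13.9.

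The remaining spindle and chromosome genes also stayed uncalled. Cenpe and Cenpf, kinetochore proteins, were at 87.0 ± 18.1 and 62.3 ± 8.84 in cKOHet and 80.9 ± 43.5 and 74.98 ± 74.6 in control libraries. The spindle genes Kif11, Kif20a, Tpx2 and Hmmr had log2 fold changes of 0.03, -0.28, -0.37 and 0.05. Top2a, the topoisomerase that untangles sister chromatids, was at 692 ± 68.4 in cKOHet and 722 ± 179 in control libraries. Mki67, the gene of the Ki-67 proliferation marker, was at 855, 867 and 951 in cKOHet libraries and 593, 1367 and 579 in control libraries. The cKOHet libraries were close together between the control extremes, and the difference was 0.20 log2 units (SE 0.24, adjusted p = 0.635). Without control replicate 2 Mki67 was called higher (0.60, adjusted p = 0.00675). Ccna2 (cyclin A2, of S phase and G2) averaged 119 ± 27.9 in cKOHet and 120.2 ± 46.8 in control libraries, and Stmn1 (stathmin, which destabilises microtubules) 368 ± 22.4 and 378 ± 151.

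**Figure D2:**
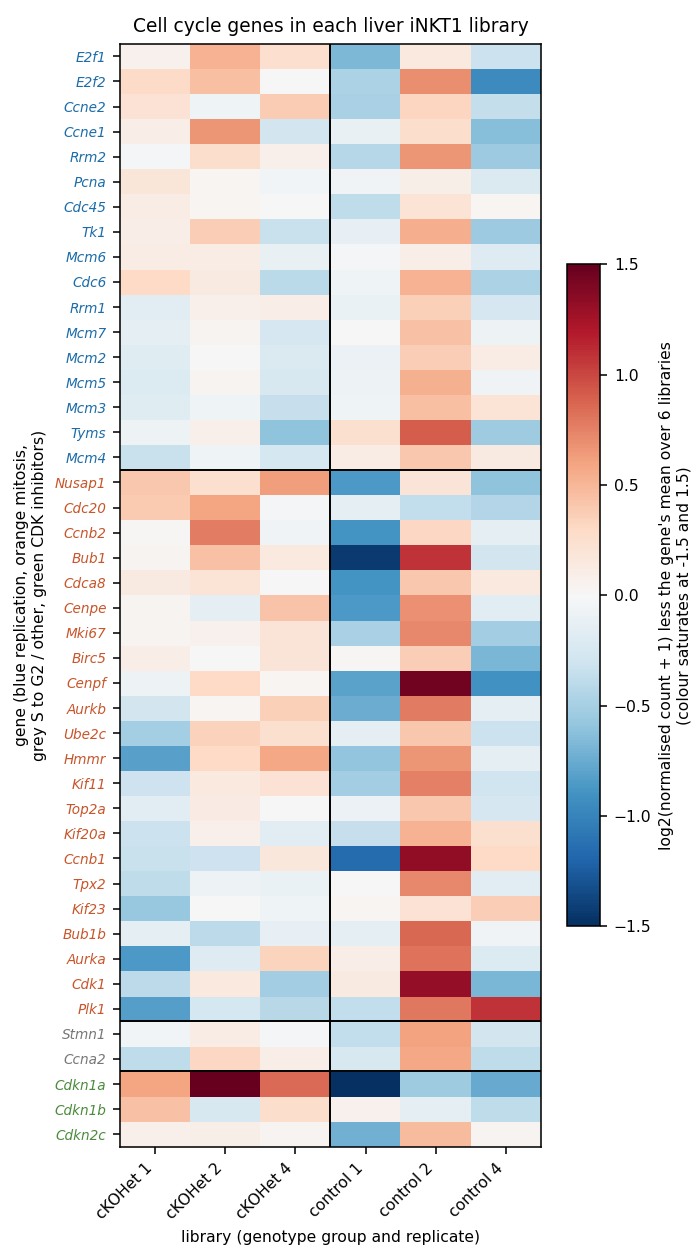
Each row is a gene, each column a library (cKOHet left, control right), and colour gives log2(normalised count + 1) less the mean of that gene over the 6 libraries, cut at -1.5 and 1.5. Control replicate 2 is the highest of the 6 libraries in 29 of the 39 replication and mitosis rows (74.4%, against 15.7% of all genes tested). Cdkn1a is red in all cKOHet libraries and blue in all controls.

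The members also differed together between libraries of the control group. Control replicate 2 was the highest control at 17 of 17 replication genes and 19 of 22 mitosis genes, together 92.3%, against 32.9% of all genes tested. It was the highest of all 6 libraries at 29 of the 39 (74.4%), against 15.7% of all genes tested. Within the cKOHet group, replicate 2 was the highest at 12 of 17 replication and 12 of 22 mitosis genes, together 61.5%, against 32.1% of all genes tested. The spread followed: the median SD of log2 levels over control libraries was 0.62 for mitosis and 0.35 for replication genes, against 0.21 for all genes, and over cKOHet libraries it was 0.29 for mitosis and 0.15 for replication genes, against 0.23 for all genes. Genes of the same library share that library, so these counts are not 39 separate observations. Without control replicate 2, 5 of the 44 genes were called, all higher in cKOHet libraries (Cdkn1a, E2f1, Mki67, Nusap1 and Rrm2), and Mcm4 was not among them. In the same fit 1970 of the 11226 genes tested were called, a larger share than of the 44. Rrm2 then had a log2 fold change of 0.59 (adjusted p = 0.0259), against 0.21 with all libraries.

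Set against each other within each library, replication and mitosis genes gave no genotype difference larger than the spread. For each class the values were averaged over its genes after subtracting the mean of each gene over the 6 libraries, in log2 units. The replication value was 0.01, 0.15 and -0.13 in cKOHet libraries 1, 2 and 4 and -0.17, 0.41 and -0.27 in control libraries 1, 2 and 4. The mitosis value was -0.22, 0.11 and 0.09 in cKOHet libraries and -0.46, 0.66 and -0.17 in control libraries. Every cKOHet library had a higher replication value than control replicates 1 and 4, and a lower one than control replicate 2. For mitosis the same held, except that cKOHet replicate 1 lay below control replicate 4. Replication minus mitosis was then 0.23, 0.04 and -0.23 in cKOHet libraries and 0.30, -0.24 and -0.10 in control libraries. A shift shared by both classes cancels in that difference. The group means of that difference were 0.01 ± 0.23 in cKOHet and -0.01 ± 0.28 in control libraries (SD, n = 3 each), and they were 0.03 apart. In both groups replicate 1 had the highest replication minus mitosis value. In the pair of libraries with low Xist (replicate 4) the difference was -0.23 in the cKOHet and -0.10 in the control library. No test was run on these class values, because the genes were chosen with results known.

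**Figure D3:**
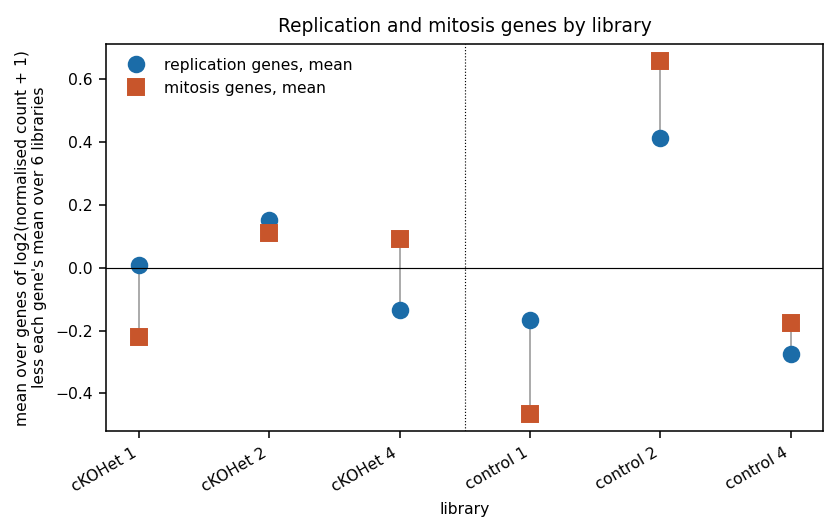
For each library (x axis, cKOHet left of control), the mean over replication genes (circles) and mitosis genes (squares) of log2(normalised count + 1) less the mean of each gene over the 6 libraries (y axis), with a grey line joining the pair. Control replicate 2 stands highest in both classes, at 0.41 and 0.66, and control replicate 1 lowest in mitosis, at -0.46.

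Levels compared per exon length were higher for replication than for mitosis genes in every library. The median over the 17 replication genes was 50.9, 69.1 and 61.2 normalised counts per kb in cKOHet libraries and 53.2, 73.4 and 47.8 in control libraries. Over the 22 mitosis genes it was 13.6, 17.2 and 18.1 in cKOHet libraries and 16.4, 24.5 and 15.0 in control libraries. The ratio of these medians was 3.74, 4.01 and 3.38 in cKOHet libraries and 3.25, 2.99 and 3.19 in control libraries, higher in each cKOHet library. The gene-centred values above averaged nearly the same in both groups. Over 17 genes the median is the value of 1 gene: Rrm1 in every library but cKOHet replicate 2, where it was E2f1. Neither was called, and Rrm1 had a log2 fold change of 0.00049. The ratio thus rests on a few genes in the middle of each class and does not describe the classes as a whole. The classes also overlapped: Mki67 and Top2a, the highest mitosis genes, reached 88.6 and 76.8 per kb in cKOHet and 84.1 and 80.1 per kb in control libraries, above Ccne2, the lowest replication gene, at 9.87 in cKOHet and 7.86 in control libraries.

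**Figure D4:**
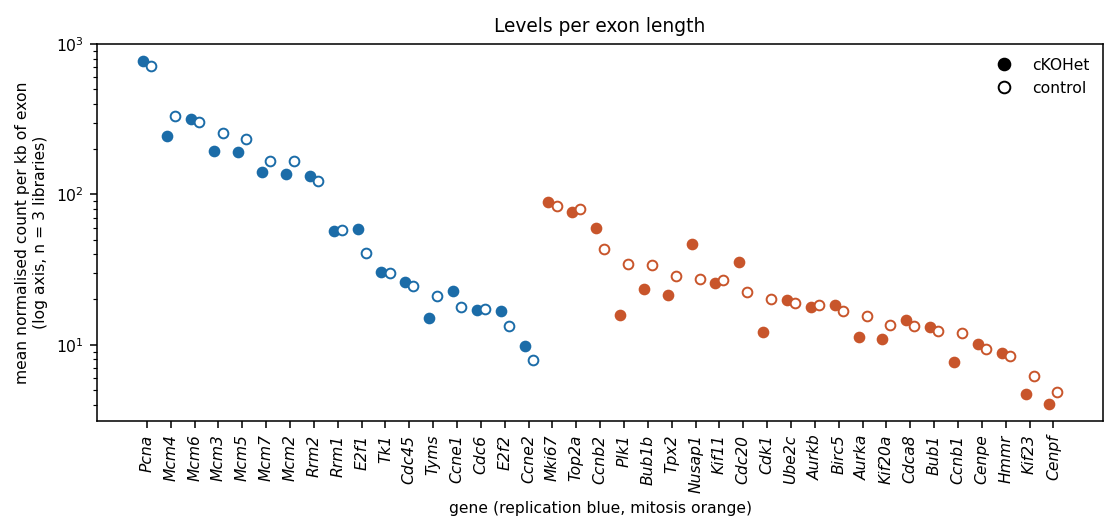
Mean normalised count per kb of exon (y axis, log scale, n = 3 libraries per group) of each replication gene (blue) and mitosis gene (orange), ordered within class by the control level, with cKOHet filled and control open. Pcna is highest at 771 in cKOHet and 711.5 in control libraries, and Cenpf lowest at 4.04 and 4.86.

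Cdkn1a, which encodes the kinase inhibitor p21 and is a textbook target of p53, had the largest change of the 44. Cdkn1a (ENSMUSG00000023067, chromosome 17, 29090976 to 29100727, plus strand) was at 31.2, 63.4 and 37.4 in cKOHet libraries and 5.39, 13.8 and 11.7 in control libraries. Every cKOHet library lay well above every control, the log2 fold change was 2.02 (SE 0.46, 95% interval 1.03 to 3.01, limma adjusted p = 0.00532), and it was called in all 6 fits that left out a library (1.65 to 2.25). It was low, at 12.4 per kb in cKOHet and 2.90 per kb in control libraries, and was not tested with a filter at 50. Cdkn1b (p27), far more abundant, was at 793, 495 and 702 in cKOHet libraries and 609, 527 and 448 in control libraries, with a log2 fold change of 0.31 (SE 0.17, adjusted p = 0.233). Without cKOHet replicate 2, its lowest cKOHet value, Cdkn1b was called (0.51, adjusted p = 0.0412). Cdkn2c (p18) was at 167 ± 2.33 in cKOHet and 160.4 ± 62.8 in control libraries. The myeloid marker sum was also higher in cKOHet libraries, as given above. Csf1r averaged 26.1 ± 1.67 and Clec4f, a Kupffer cell lectin, 26.6 ± 5.44 in cKOHet libraries, with 6.15 ± 5.12 and 5.84 ± 4.95 in control libraries. The myeloid sum and Cdkn1a were both higher in every cKOHet library than in any control library. Within the groups their orders differed, but the libraries of a group are too few to compare orders. The myeloid sum was 138, 113 and 114 in cKOHet replicates 1, 2 and 4, and Cdkn1a was highest in replicate 2. In control replicates 1, 2 and 4 the sum was 77.4, 47.8 and 25.8, and Cdkn1a was lowest in replicate 1. Whether such cells carry part of the Cdkn1a signal was not tested.

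The promoters of the classes differed in the sequence words they hold. RefSeq promoters (GRCm38.p6, 250 bases before to 50 after a start) were found for 37 of the 44 genes. The words searched on both strands were the E2F words TTTCCCGC, TTTGGCGC, TTTCGCGC and TTTGCCGC, the cell cycle homology region (CHR) word TTTGAA bound by MuvB complexes, and CCAAT, bound by NF-Y. An E2F word was in 6 of 15 replication and 1 of 19 mitosis promoters (40.0% and 5.26%), against 2.32% of all 27025 promoters and 4.52% of the 8269 promoters of genes tested, which the mitosis share barely exceeds. The CHR word was in 2 of 15 replication and 14 of 19 mitosis promoters (13.3% and 73.7%), against 18.1% of all and 11.9% of those of genes tested. CCAAT was in 10 of 15 and 17 of 19 (66.7% and 89.5%), against 37.9% of all and 39.7% of those of genes tested. The words do not overlap each other in the sequences printed here, and a match is not evidence of binding in these cells.

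Sequences are shown for the replication and mitosis genes with the smallest adjusted p that had a promoter entry, to set the words beside the fold changes, in lower case with matches in capitals, 5′ to 3′ on the strand of the gene. Mcm3 (chr1:20820263-20820562, minus strand) holds 2 E2F words, 1 of them on the other strand (GCGGGAAA), and 3 CCAAT words, the first on the other strand (ATTGG). E2f1 (chr2:154569377-154569676, minus strand) and Nusap1 (chr2:119618048-119618347, plus strand) hold none of these words in these windows, but the start used for E2f1 lies 466 bases inside the gene as GENCODE places it, so its window is not the region upstream of the annotated 5′ end. Plk1 (chr7:122159185-122159484, plus strand) holds a CCAAT and a CHR word.
Mcm3: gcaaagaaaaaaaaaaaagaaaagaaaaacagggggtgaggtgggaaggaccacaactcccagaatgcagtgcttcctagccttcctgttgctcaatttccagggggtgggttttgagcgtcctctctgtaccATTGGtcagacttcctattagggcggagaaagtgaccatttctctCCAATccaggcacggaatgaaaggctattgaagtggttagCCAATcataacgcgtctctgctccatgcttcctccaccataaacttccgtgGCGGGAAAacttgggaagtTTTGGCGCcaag
E2f1: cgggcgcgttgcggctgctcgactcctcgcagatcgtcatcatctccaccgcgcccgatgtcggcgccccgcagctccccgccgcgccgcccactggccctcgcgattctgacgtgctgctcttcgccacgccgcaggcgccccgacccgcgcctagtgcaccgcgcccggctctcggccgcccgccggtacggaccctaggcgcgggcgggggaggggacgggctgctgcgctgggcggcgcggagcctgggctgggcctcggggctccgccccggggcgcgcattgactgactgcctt
Nusap1: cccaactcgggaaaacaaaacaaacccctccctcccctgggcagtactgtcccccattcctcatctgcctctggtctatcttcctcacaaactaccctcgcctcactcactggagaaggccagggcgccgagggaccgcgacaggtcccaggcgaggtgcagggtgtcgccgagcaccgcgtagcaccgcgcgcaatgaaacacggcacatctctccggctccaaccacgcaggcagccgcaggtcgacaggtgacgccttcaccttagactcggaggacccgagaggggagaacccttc
Plk1: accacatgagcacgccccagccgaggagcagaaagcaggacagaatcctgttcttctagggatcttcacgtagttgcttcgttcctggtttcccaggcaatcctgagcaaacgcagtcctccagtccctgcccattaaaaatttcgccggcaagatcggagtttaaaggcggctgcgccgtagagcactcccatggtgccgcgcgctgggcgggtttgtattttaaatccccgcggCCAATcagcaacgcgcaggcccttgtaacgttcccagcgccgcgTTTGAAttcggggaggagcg
Mcm3 and Plk1 thus carry the words common in their classes, and both had negative fold changes short of the threshold. E2f1 and Nusap1, with none of the words in these windows, had positive ones, which describes 4 genes and no more. Members with an E2F or CHR word had fold changes of either sign, positive for Mcm6 and Mki67 and negative for Mcm5 and Bub1b.

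For Cdkn1a the start nearest to the 5′ end of the annotated gene is shown (chr17:29090729-29091028, plus strand), since it was the called inhibitor gene. The p53 decamer, a motif added after the values were seen, matched at 2 places, given in capitals, and was in 8.35% of all promoters and 6.32% of those of genes tested. It was also in 2 of 15 replication promoters (13.3%, Tk1 and Tyms) and 3 of 19 mitosis promoters (15.8%, Birc5, Bub1b and Kif23). None of these genes was called.
Cdkn1a: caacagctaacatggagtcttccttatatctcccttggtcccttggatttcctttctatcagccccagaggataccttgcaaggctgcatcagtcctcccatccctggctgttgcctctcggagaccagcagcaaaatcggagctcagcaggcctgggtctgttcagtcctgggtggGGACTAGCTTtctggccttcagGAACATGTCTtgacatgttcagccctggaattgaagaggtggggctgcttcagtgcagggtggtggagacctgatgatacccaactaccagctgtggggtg
Trp53, which encodes p53 (chosen after its values were seen), fell in cKOHet libraries (763 ± 67.1, against 1118 ± 196 in control libraries, log2 fold change -0.54, limma adjusted p = 0.0124), and this call ended without cKOHet replicate 4 (-0.46, adjusted p = 0.052), control replicate 1 (-0.47, adjusted p = 0.0621) or control replicate 4 (-0.45, adjusted p = 0.0654).

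Further genes of DNA replication, mitosis and G1 control put the 44 in context. Of 52 other replication genes, 4 fell and none rose (7.69% called, against 21.4% of all genes), with a median log2 fold change of -0.07. Cdt1, the MCM loading factor that is kept in check by geminin, was at 162, 232 and 142 in cKOHet libraries and 265, 401 and 357 in control libraries. The groups did not overlap (log2 fold change -0.94, SE 0.21, limma adjusted p = 0.00384). Gmnn, the gene of geminin (chosen after its values were seen), averaged 125 ± 15.1 in cKOHet and 110.5 ± 47.1 in control libraries and was not called.

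The other called replication genes fell too. Pold2, a subunit of DNA polymerase delta, was at 191, 155 and 159 in cKOHet libraries and 295, 285 and 313 in control libraries (log2 fold change -0.82, limma adjusted p = 0.00174). The groups were well apart. Fen1, the nuclease that trims Okazaki fragments, averaged 25.1 ± 6.50 in cKOHet and 53.03 ± 5.22 in control libraries (-1.07, adjusted p = 0.0336), and Gins3, of the GINS helicase complex, 30.2 ± 12.4 and 65.2 ± 14.8 (-1.14, adjusted p = 0.0365). The Fen1 call ended without any library except cKOHet replicate 2 (adjusted p 0.0641 to 0.104, log2 fold change -1.15 to -0.92), and the Gins3 call ended without cKOHet replicate 1 or 4 or control replicate 2 or 4 (adjusted p = 0.0627, 0.136, 0.13 and 0.109, with log2 fold changes of -1.18, -0.82, -1.001 and -1.09).

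Of 71 other mitosis genes tested, 1 rose and 2 fell (4.23% called), and the median log2 fold change was -0.01. Kifc1, a motor that clusters spindle poles, was at 53.4, 62.0 and 39.6 in cKOHet libraries and 105, 155 and 135 in control libraries. The groups did not overlap (log2 fold change -1.34, SE 0.26, limma adjusted p = 0.00174). Cdc25b, the phosphatase that activates Cdk1, averaged 85.5 ± 16.5 in cKOHet and 148 ± 36.4 in control libraries (-0.77, adjusted p = 0.0339), a call that ended without cKOHet replicate 1 or control replicate 2 or 4 (adjusted p = 0.121, 0.162 and 0.0653, with log2 fold changes of -0.60, -0.58 and -0.82). Depdc1a, at 22.5 ± 9.07 in cKOHet and 6.66 ± 2.07 in control libraries, was called higher (adjusted p = 0.0394), but that ended without any library except cKOHet replicate 1 (adjusted p 0.0507 to 0.158, log2 fold change 1.30 to 1.74, against 1.59). The chromosome-condensing motor gene Kif4 was at 65.5 ± 9.87 in cKOHet and 37.4 ± 18.1 in control libraries (adjusted p = 0.0988), and was called without control replicate 2 (log2 fold change 1.24, adjusted p = 0.0281). Foxm1 and Mybl2, which encode activators of mitosis genes (chosen after their values were seen), were at 101 ± 11.0 and 36.1 ± 7.05 in cKOHet and 107 ± 41.4 and 52.1 ± 40.9 in control libraries, neither called.

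Of 33 genes of G1 control tested, 7 rose and 3 fell (30.3%, against 21.4% of all genes). The groups did not overlap at 36.4% of them, close to the 35.8% of all genes, and their median log2 fold change was 0.09. Rb1, the retinoblastoma protein that restrains E2F, was at 700.0, 757 and 796 in cKOHet libraries and 325, 324 and 355 in control libraries. The groups lay far apart, 1.16 log2 units from each other (SE 0.13, limma adjusted p = 7.03e-06). Tob1, an antiproliferative gene of quiescent T cells, was at 256, 196 and 326 in cKOHet libraries and 121, 75 and 87.8 in control libraries (log2 fold change 1.44, adjusted p = 0.000332).

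Cyclin D genes moved in opposite directions. Ccnd3 was at 1743, 1969.5 and 1898 in cKOHet libraries and 2628, 3082 and 3291 in control libraries (log2 fold change -0.68, SE 0.12, limma adjusted p = 0.000728). Ccnd2, named after its values were known, was at 6632, 7585 and 10931 in cKOHet libraries and 5925, 5519.9 and 5998 in control libraries. Its groups did not overlap (0.50, adjusted p = 0.0424), but the call ended without any library except cKOHet replicate 1 (adjusted p 0.06 to 0.146, log2 fold change 0.29 to 0.55). E2f3, an activator E2F like E2f1, fell (79.2 ± 19.5 in cKOHet and 174 ± 51.0 in control libraries, -1.11, adjusted p = 0.00606), while E2f1 was not called. The remaining genes called higher, chosen after their values were seen, were Rbl2 (p130, the retinoblastoma relative of resting cells), Tfdp1 (an E2F partner), Cdkn2d (p19) and Ccng1 (cyclin G1), at log2 fold changes of 0.42, 0.55, 0.54 and 0.54 (adjusted p = 0.0149, 0.0186, 0.0371 and 0.00784). Of these, Ccng1 stayed called whichever library was left out. The call of Rbl2 ended without control replicate 2 (adjusted p = 0.0698), that of Tfdp1 without cKOHet replicate 4 or control replicate 1 or 4 (0.0687, 0.0976 and 0.0679) and that of Cdkn2d without cKOHet replicate 1 or 2 or control replicate 1 or 4 (0.0708, 0.149, 0.154 and 0.0616). In those fits the log2 fold change was 0.38 for Rbl2, 0.44 to 0.51 for Tfdp1 and 0.44 to 0.58 for Cdkn2d.

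**Figure D5:**
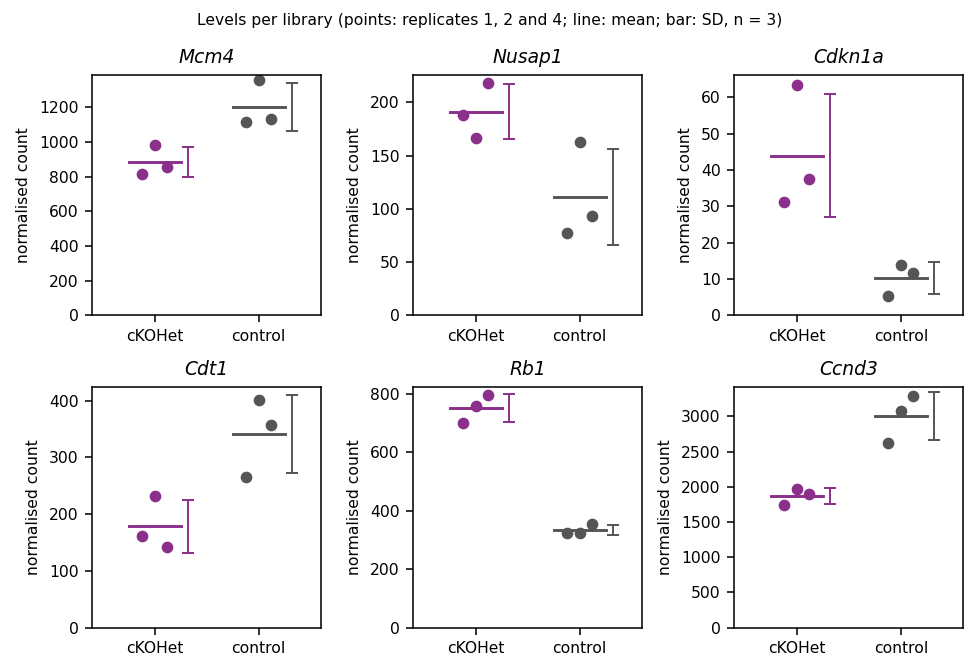
Normalised counts (y axis, from 0) of 6 genes in cKOHet (left) and control (right) libraries, with points for replicates 1, 2 and 4, a line at the mean and a bar for the SD (n = 3). The groups are apart in all 6 panels: Nusap1, Cdkn1a and Rb1 are higher and Mcm4, Cdt1 and Ccnd3 lower in cKOHet libraries.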

How the data were processed

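The authors deposited 1 table of normalised read counts (a signal per Ensembl gene, named as normalised HTSeq counts by the file). Per the submitters' processing notes, Trimmomatic 0.33, STAR, HTSeq 0.6.1 and DESeq2 were used with mm10; the sources used here do not give their settings, the annotation or the strand. Per the labels' protocols, RNA came from RNeasy kits and libraries from the Ovation Ultralow system. Low values lie in bands near whole numbers whose offset is not the same in each library. Whole reads could therefore not be recovered, depth is unknown and no count test was run.

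GENCODE M21 (GRCm38) named 12870 of 12942 identifiers and gave exon lengths (the union of all exons of a gene). Values were analysed as log2(value + 1), which understates the change of low genes. Genes at or above 10 in at least 3 libraries entered limma 3.58.1 in R 4.3.3 with a mean-variance trend, all 6 libraries, cKOHet minus control, Benjamini-Hochberg over 11226 genes, called at an adjusted p under 0.05. The procedure was tested on simulated data in which genes varied independently. That test does not cover a shift shared by many genes of a library, as seen in control replicate 2. All 44 genes are named. In the wider lists the rule named the 4 genes with the smallest adjusted p, and others are marked as chosen after their values were seen. The members and lists were chosen with earlier results of these data known. Alternatives covered the pseudocount, filter, scaling, variance model, replicate block, Xist and each library left out (on the same genes).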

Additional observations from a re-analysis of the deposited data

How the results depend on the processing

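The count of all genes called stayed between 1670 and 2492, against 2407, in the alternatives that kept all libraries or those with high Xist, and between 1883 and 2207 with a library left out. Replication genes called numbered 1, but 2 with upper quartile scaling (Mcm3 joined Mcm4) or a replicate block, and 0 with no mean-variance trend or in the libraries with high Xist alone, an alternative chosen after seeing the data. Mitosis genes called numbered 1, but 2 with a replicate block (Plk1 joined Nusap1), and 0 with no mean-variance trend or with high Xist alone. With a library left out, both counts ran from 0 to 2. Cdkn1a was called in all 17 alternatives that tested it. Of the 17 genes called in the wider lists, 11 calls ended with high Xist alone: Cdt1 (log2 fold change -0.75, adjusted p = 0.0706), Fen1 (-0.998, 0.131), Gins3 (-0.77, 0.257), Cdc25b (-0.90, 0.0858), Depdc1a (1.06, 0.289), E2f3 (-1.08, 0.0656), Ccnd2 (0.31, 0.167), Rbl2 (0.38, 0.057), Tfdp1 (0.45, 0.156), Cdkn2d (0.65, 0.0572) and Trp53 (-0.37, 0.148). With no mean-variance trend 8 ended, with the same fold changes as in the report (Gins3, Cdc25b, Ccnd2, Rbl2, Tfdp1, Cdkn2d, Trp53 and Ccng1, adjusted p 0.0715 to 0.172). Singly, calls ended for Depdc1a with the block (1.59, 0.0576) and quantile normalisation (1.41, 0.0627), for Gins3 with library weights (-0.95, 0.0701) and for Cdkn2d with upper quartile scaling (0.50, 0.0573). The replicate block called 2412 genes in all. Same-numbered libraries were correlated at 0.0917, 0.0878 and 0.0549 in their deviations from group means, each the highest for its number. Libraries with different numbers were correlated at -0.12 to 0.0293. In both groups low Xist fell on replicate 4 and the joined library code on replicate 1. The labels do not say that the numbers mark pairs, so the main fit had no replicate block. Whether the libraries were paired is not known. Replication minus mitosis, cKOHet minus control, lay between -0.11 and 0.03 when the pseudocount, filter, scaling, class members or summary changed and between -0.08 and 0.19 with a library left out, all within the spread between libraries (0.03 with all).

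Fold changes of uncalled genes changed sign. With upper quartile scaling the log2 fold changes were Cdc6 -0.028, Rrm1 -0.045, Kif11 -0.012, Ccna2 -0.025 and Stmn1 -0.016. With quantile normalisation the log2 fold changes were Rrm1 -0.022, Kif11 -0.019, Ccna2 -0.011 and Stmn1 -0.0075. With library weights that of Rrm1 was -0.00015. With high Xist alone the log2 fold changes were Cdc6 -0.0092, Rrm1 -0.18, Aurkb -0.14, Birc5 -0.15, Cenpf -0.21, Hmmr -0.30, Kif11 -0.21, Mki67 -0.064, Ube2c -0.21, Ccna2 -0.21 and Stmn1 -0.077. With a library left out the ranges that crossed 0 were Cdc45 -0.067 to 0.22, Cdc6 -0.22 to 0.28, Mcm6 -0.0095 to 0.14, Rrm1 -0.13 to 0.18, Rrm2 -0.0089 to 0.59, Tk1 -0.17 to 0.37, Aurkb -0.28 to 0.48, Birc5 -0.10 to 0.43, Bub1 -0.19 to 1.07, Ccnb1 -0.97 to 0.27, Cdca8 -0.16 to 0.49, Cdk1 -0.99 to 0.019, Cenpe -0.15 to 0.62, Cenpf -0.24 to 0.94, Hmmr -0.24 to 0.47, Kif11 -0.22 to 0.42, Mki67 -0.016 to 0.60, Top2a -0.18 to 0.15, Ube2c -0.11 to 0.32, Ccna2 -0.16 to 0.32, Stmn1 -0.15 to 0.34 and Cdkn2c -0.19 to 0.41. The cause of these changes was not tested.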
